A study of Mus musculus with 44 samples.

Results

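GABA-A receptors are chloride channels built from several subunits around a central pore, and they carry most of the fast synaptic inhibition in the brain. Alpha and beta subunits together form the binding site for GABA, and the choice of alpha subunit sets where the receptor sits and how it responds to drugs such as benzodiazepines. Receptors that hold a delta subunit lie mostly outside synapses and pass a steady inhibitory current, and in the striatum delta is known to pair with alpha4. The nucleus accumbens is a ventral striatal region whose main neurons use GABA themselves and inhibit one another.

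Of the 55487 genes in the count tables, 7 subunit genes matched by symbol are described: the alpha subunits Gabra2, Gabra3, Gabra4 and Gabra5, the beta subunits Gabrb1 and Gabrb2, and the delta subunit Gabrd. All 7 were matched and all 7 passed the filter on low counts in both tables. The study delivered RXRa (retinoid X receptor alpha), a nuclear receptor that regulates transcription, into the mouse nucleus accumbens by viral infusion. One table held bulk tissue from males, 4 libraries with the vector HSV-GFP (a herpes simplex virus carrying green fluorescent protein) and 4 with HSV-RXRa-GFP. The other held sorted nuclei labelled D1 or D2, terms for striatal projection neurons with the dopamine receptor gene Drd1 or Drd2. These animals received AAV9-CAG-DIO-EGFP or AAV9-CAG-DIO-EGFP-P2A-RXRa, adeno-associated vectors with the broadly active CAG promoter and an insert that only Cre recombinase turns on. In females there were 5 D1 EGFP, 4 D1 RXRa, 4 D2 EGFP and 4 D2 RXRa libraries, and in males 5, 4, 5 and 4. The Cre line, the age of the mice and whether animals were pooled are not given in the sources used here, and control animals carried a viral vector too.

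Total counts ran from 21567565 to 29167142 in the 8 bulk libraries and from 12211655 to 27757463 in the 35 sorted ones. The vector's RXRa transcript had no count in the GFP bulk libraries and 22.1 to 37.7 CPM (counts scaled to the library total after TMM correction) in the RXRa ones, and in the sorted libraries at most 0.875 CPM with EGFP against 43.3 to 709 CPM with RXRa. The sort held up against its markers in part. Drd2 stood at 519 CPM or more in every D2 library and at 106 CPM or less in every D1 library. Drd1 ran from 30.6 to 83.7 CPM in D1 and from 6.48 to 38.5 CPM in D2. Summed over the 7 D1 markers, the EGFP medians were 555 CPM in D1 and 410 CPM in D2 females. In males they were 536 and 405 CPM. Eya1, among these markers, did not separate the populations under EGFP. Its medians in D1 and D2 were 85.3 and 89.8 CPM in females and 86.9 and 87.4 CPM in males. Ebf1, the largest part of the sum, had EGFP medians of 269 and 248 CPM in females and 273 and 237 CPM in males. Markers of glia and other cell types were detected in every sorted group, with none of the listed genes at 0 throughout. Each sorted library had counts in 51246 to 54272 of the 55487 genes, so this detection cannot show whether such cells were present.

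By GENCODE M21 coordinates (GRCm38), 3 of the 7 genes lie close together on chromosome 5. Gabra2 spans chr5:70957597-71095849 and Gabra4 chr5:71569749-71658308, both on the minus strand, and Gabrb1 spans chr5:71658113-72149037 on the plus strand. Gabra4 and Gabrb1 start head to head, with 0.221% of the Gabra4 body shared on opposite strands. Gabra5 lies at chr7:57407672-57510059 on the minus strand, and 90.5% of its body is overlapped by a gene on the opposite strand. Whether the counting used strand is not given in the sources used here, so reads of Gabra5 and of that gene cannot be told apart with certainty. Gabra3 is X-linked (chrX:72432681-72656848, minus strand), Gabrb2 lies at chr11:42419757-42629028 on the plus strand, and Gabrd, by far the shortest with a body of 13.1 kb, at chr4:155384980-155398112 on the minus strand. Most of each body is intron: annotated exon makes up 21.9% of Gabrd and between 1.75% and 6.87% of the other 6.

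The stretches upstream of 3 members are shown because RXRa is a DNA-binding protein and these are the genes on which the comparisons below turn: Gabra2 and Gabra4, neighbours that were both higher in D2 nuclei with RXRa, and Gabra5, the member that was lower in bulk tissue. RefSeq promoter windows (GRCm38.p6, 250 bases before to 50 after a start site) were found for 6 of the 7 members, as 10 windows. The sequences below leave out annotated exons. They are given whole from the start site upstream for Gabra2 and Gabra5, whereas that of Gabra4 begins 56 bases upstream and lies within the first part of the Gabrb1 body on the other strand. They are written 5′ to 3′ on the gene's own strand.
Gabra2, chr5:71095850-71096099, minus strand: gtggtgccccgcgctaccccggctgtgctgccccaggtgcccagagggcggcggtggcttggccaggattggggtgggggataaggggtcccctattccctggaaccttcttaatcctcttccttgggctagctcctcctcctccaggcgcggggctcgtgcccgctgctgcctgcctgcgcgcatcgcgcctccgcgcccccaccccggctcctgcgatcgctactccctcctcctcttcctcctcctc
Gabra4, chr5:71658364-71658558, minus strand: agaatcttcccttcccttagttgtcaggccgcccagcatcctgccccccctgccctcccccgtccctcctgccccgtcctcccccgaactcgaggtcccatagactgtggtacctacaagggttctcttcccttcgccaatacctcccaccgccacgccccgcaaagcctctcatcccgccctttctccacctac
Gabra5, chr7:57510060-57510309, minus strand: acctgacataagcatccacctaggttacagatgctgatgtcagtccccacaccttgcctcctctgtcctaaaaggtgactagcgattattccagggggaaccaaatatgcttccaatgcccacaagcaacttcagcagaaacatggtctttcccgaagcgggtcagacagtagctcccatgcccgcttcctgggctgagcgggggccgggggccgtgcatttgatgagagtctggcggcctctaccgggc
G and C made up 70% of the Gabra2 stretch, 63.6% of the Gabra4 stretch and 56.4% of the Gabra5 stretch, with 18, 10 and 9 CpG dinucleotides. A core half-site that retinoid X receptors and their partners bind, AGGTCA on either strand (TGACCT), was in none of the 10 member windows. No letters are therefore set in capitals. This half-site was in 16.3% of all 32851 windows of that length. Only these exact letters were searched for, not variants of the site. That these letters are missing from a short window says nothing about variants or about binding elsewhere in the genes.

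In bulk tissue, where poly(A) selection favours spliced messenger RNA, levels were compared between genes as CPM per kb of annotated exon. Gabrd was the most abundant of the 7, at 42.4 ± 5.40 (SD, n = 8), and Gabra4, its known striatal partner, was next at 24.1 ± 1.88. This order held in 8 of 8 libraries. The next 4 subunits could not be ordered beyond their spread: Gabrb2 at 15.0 ± 2.37, Gabra3 at 14.0 ± 3.03, Gabra5 at 13.1 ± 2.37 and Gabrb1 at 12.2 ± 1.58. Each neighbouring pair among them kept its order in only 4 or 5 of the 8 libraries. Gabra2, an alpha subunit of striatal synapses, was lowest at 9.61 ± 1.07 and stood below Gabrb1 in all 8 libraries.

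Of the 7 subunits, 1 was called lower with RXRa in bulk tissue and none higher, by edgeR's quasi-likelihood test at a Benjamini-Hochberg adjusted p under 0.05 over all genes tested. Over all 18579 genes, 0.689% were called lower. The gene was Gabra5, a subunit known for receptors outside synapses. Its CPM in the GFP libraries 1 to 4 was 49.6, 44.9, 40.8 and 43.2, and in the RXRa libraries 36.0, 37.2, 28.5 and 31.3. Every RXRa library lay below every GFP library, and the fitted log2 fold change was -0.42 (SE 0.10, edgeR adjusted p = 0.0461). The call rested close to the threshold: it was lost under 2 other scalings of the libraries and when any library but RXRa 1 was left out, with edgeR adjusted p from 0.0437 to 0.143 over the 8 omissions. The log2 fold change stayed between -0.48 and -0.35 throughout those omissions.

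For 2 further members the bulk groups did not overlap, yet the test was not passed. Gabrd stood at 127, 141, 129 and 136 CPM with GFP and at 125, 121, 100 and 97.9 CPM with RXRa (log2 fold change -0.26, SE 0.09, edgeR adjusted p = 0.129). Gabra2 stood at 76.4, 77.3, 74.3 and 90.1 CPM with GFP and at 64.9, 69.0, 65.7 and 69.5 CPM with RXRa (-0.24, SE 0.07, edgeR adjusted p = 0.0811; with DESeq2 0.0344). For both, as for Gabra5, the highest RXRa library was below the lowest GFP library, which was so for 6.54% of all genes tested. The 4 others overlapped, with log2 fold changes of -0.21 for Gabrb1, -0.13 for Gabra4, -0.14 for Gabrb2 and -0.06 for Gabra3, and edgeR adjusted p from 0.249 to 0.902. All 7 fitted values were negative, with a median of -0.21 beside -0.015 over all genes.

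**Figure D1:**
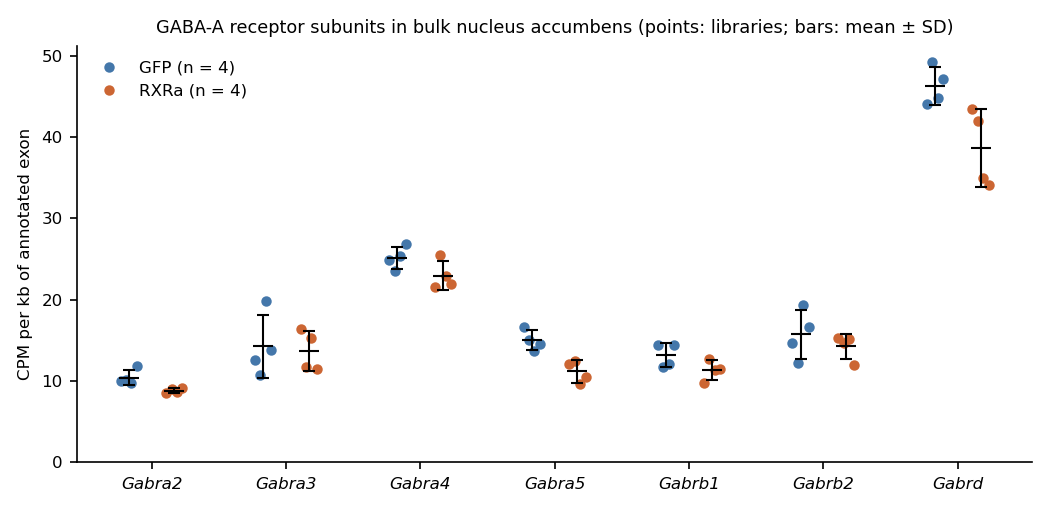
Levels of the 7 subunits in bulk nucleus accumbens, in CPM per kb of annotated exon, for 4 GFP and 4 RXRa libraries (points) with the mean and SD of each group (bars). Gabrd is the highest and Gabra2 the lowest, and the GFP and RXRa points of Gabra2, Gabra5 and Gabrd do not overlap.

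Markers of several cell types moved across the same 8 libraries, and their part in the subunit values was not tested. In bulk tissue, fewer cells of a type and less RNA per cell cannot be told apart. The summed CPM of 6 markers of striatal projection neurons was 3434 to 4154 with GFP and 3069 to 3762 with RXRa, and that of 5 T cell markers was 10.1 to 13.1 with GFP and 21.5 to 60.9 with RXRa. Gabra3, an alpha subunit that the cortex is known to express, and Gabrb2 varied most within a group. Gabra3 stood at 49.6, 42.2, 77.6 and 54.4 CPM in GFP libraries 1 to 4 and at 64.1, 46.2, 59.9 and 45.1 CPM in RXRa libraries 1 to 4. The 3 highest of these, GFP 3, RXRa 1 and RXRa 3, were also the 3 libraries with the highest summed level of 5 markers of glutamatergic neurons, at 665, 428 and 503 CPM against 7.21 to 93.9 CPM in the other 5. Striatal projection neurons are not glutamatergic. Gabrb2 was likewise highest in GFP 3, at 123 CPM, but stood at 106 CPM in GFP 4, where the glutamatergic markers summed to 79.7 CPM. Leaving out GFP 3 turned the Gabra3 log2 fold change from -0.06 to 0.14. Over the omissions of each of the 8 libraries it ran from -0.17 to 0.14.

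The pathway around the receptor was read from 36 genes for GABA synthesis, transport, chloride balance, receptor anchoring and GABA-B receptors. Of the 35 tested in bulk, 1 was called lower and none higher: Aldh5a1, which completes the breakdown of GABA, at -0.36 on the log2 scale (SE 0.07, edgeR adjusted p = 0.0334). The median over the list was -0.15, and 29 of the 35 values were negative. Of the 8 other subunit genes tested, none was called (2 at an unadjusted p under 0.05 by edgeR), and their median was -0.28. Over all 18579 genes, 3990 had such a p.

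Sorted nuclei gave total RNA cleared of ribosomal RNA, and the counts followed gene length differently. A set of 1576 autosomal protein-coding genes, each 5 kb or longer and without a single bulk count, served as silent genes. Among them the logarithm of the sorted count rose with a slope of 0.939 on that of the gene body length and of 0.0943 on that of exon length. These genes held a median density of 0.504 CPM per kb of gene body (quartiles 0.390 and 0.603). Gabra6, a subunit of cerebellar granule cells, had 0 counts over the 8 bulk libraries and 81 to 299 counts in each sorted library, or 1.20 times the silent-gene density of the same library at the median. For Gabrp and Gabrr3, with 1 and 2 bulk counts in all, the median ratio was 1.29 and 1.11. A sorted count of a subunit therefore sits on a level that genes without detected bulk messenger RNA share, and each member is given below also as its density over that of the silent genes in the same library. That ratio was chosen after the data were seen and does not depend on how libraries are scaled.

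Of the 7 subunits, 5 stood above the autosomal silent-gene density in every one of the 35 sorted libraries. Gabra4 had the highest ratio, with a median of 3.28 (lowest 1.96, highest 8.54), and Gabrd was next at 2.72 (1.65 to 6.22). Gabra2 followed at 2.51 (1.87 to 7.25). The beta subunits, which help to form the GABA binding site, were lower: Gabrb2 had a median ratio of 2.18 (1.55 to 5.10) and Gabrb1 of 1.85 (1.47 to 4.54). Gabra3, set against the median of 118 silent X-linked genes, was above that median in every library but only modestly, at 1.52 (1.33 to 2.79). Averaged over all sorted libraries, those genes had quartiles of 0.133 and 0.429 CPM per kb and Gabra3 stood at 0.460. In EGFP females Gabra3 averaged 0.612 CPM per kb, beside 0.439 for X-linked and 0.544 for autosomal silent genes. In EGFP males it averaged 0.337, beside 0.217 and 0.536.

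Gabra5 was the exception, with a median ratio of 0.842 (0.739 to 1.35). Its level of 0.437 CPM per kb of body on average was below the median of silent genes, although in bulk tissue Gabra5 was as abundant per kb of exon as Gabra3 and Gabrb1. The 40 silent genes that lie inside a gene of the opposite strand, as most of Gabra5 does, had a lower median density of 0.292 (upper quartile 0.333), and Gabra5 stood above that quartile in every library, at 0.364 to 0.496 CPM per kb. Its place relative to silent genes thus depended on which silent genes it was set against.

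By density over the gene body, Gabra4 (1.71 ± 0.30 CPM per kb, SD, n = 35) exceeded Gabrd (1.45 ± 0.35) in 27 of 35 libraries. Gabrd and Gabra2 (1.44 ± 0.26) were not ordered, with Gabrd higher in 18 of 35. Below them Gabra2, Gabrb2 (1.15 ± 0.14), Gabrb1 (1.03 ± 0.12) and Gabra3 (0.460 ± 0.14) kept this order in all 35 libraries, whereas Gabra3 exceeded Gabra5 in 17 of 35. Gabra4 and Gabrd thus had the highest means in both tables, but in nuclei Gabrd was not separated from Gabra2. Gabra2 was lowest per kb of exon in bulk but above 4 members per kb of body in nuclei. The scales differ between the tables, so only the order within each is given. Annotated exon makes up 21.9% of the Gabrd body, against 5.53% for Gabra2 and 6.87% for Gabra4. Scaling with body length was shown in silent genes only, and the part of exon reads in the order in nuclei was not tested.

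**Figure D2:**
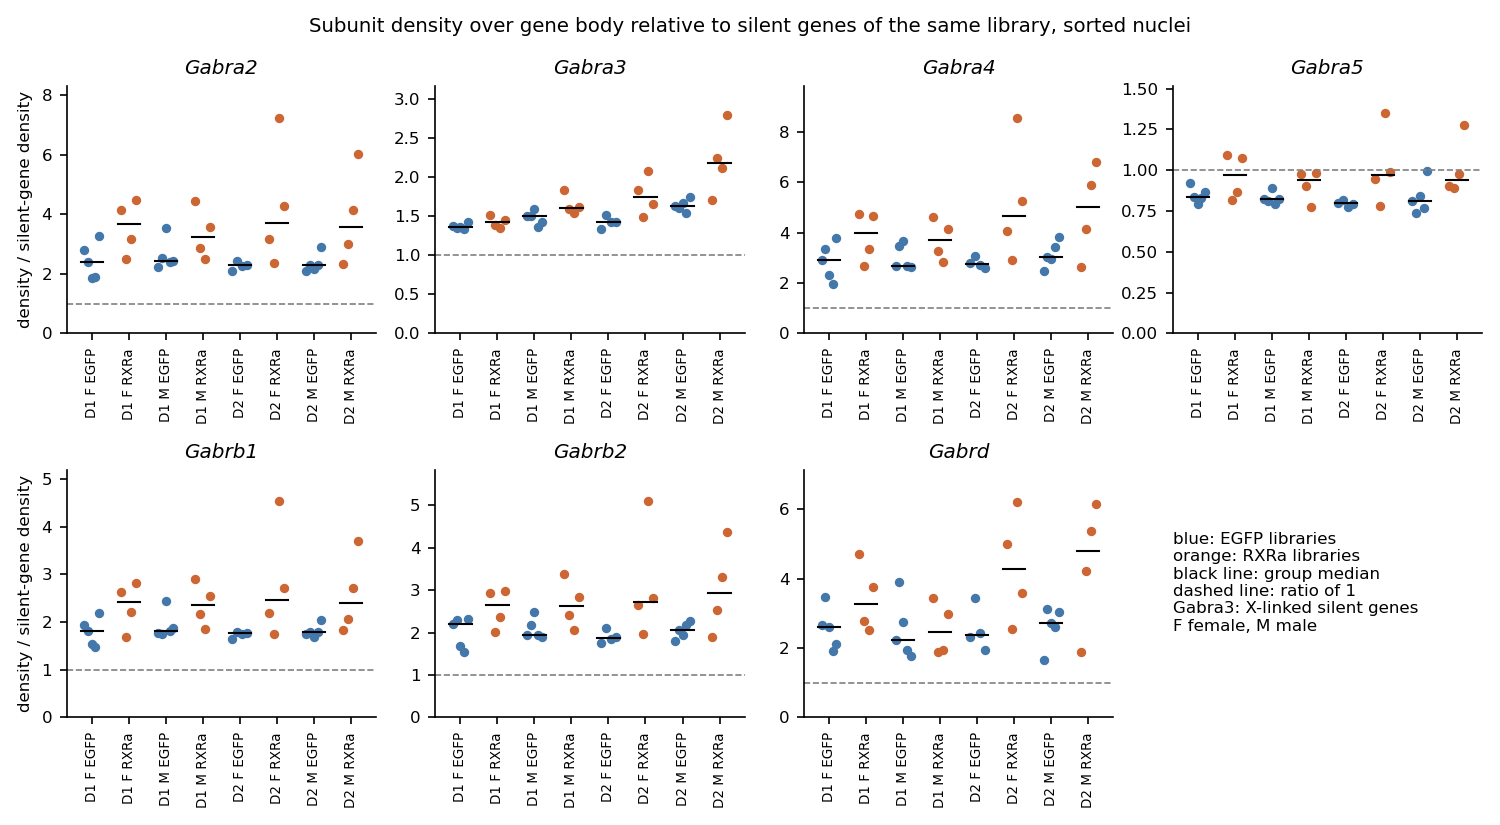
Density of each subunit over its gene body divided by the median density of silent genes in the same library (autosomal silent genes, or X-linked ones for Gabra3), for the 8 sorted groups of 4 or 5 libraries; points are libraries, black lines group medians, and the dashed line marks a ratio of 1. Gabra4 reaches 8.54 in 1 D2 female RXRa library, and Gabra5 lies on both sides of 1.

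Under the control vector, D1 and D2 nuclei did not differ in any subunit by the test: 0 of 7 were called by edgeR (1 had an unadjusted p under 0.05), DESeq2 or limma voom, where 0.121% of all 43902 genes were called either way. Of those genes, 4618 had an unadjusted p under 0.05 by edgeR. The log2 fold changes of D2 over D1 were -0.07 (SE 0.13) for Gabra2, 0.07 (0.13) for Gabra4, -0.01 (0.10) for Gabrb1, 0.01 (0.10) for Gabrb2 and 0.10 (0.16) for Gabrd. The value with the smallest p was that of Gabra3, at 0.16 (SE 0.06, edgeR adjusted p = 0.351). Gabra3 ran from 117 to 129 CPM in D1 and from 125 to 147 CPM in D2 of EGFP females, and from 65.9 to 75.8 CPM in D1 and from 73.6 to 83.6 CPM in D2 of EGFP males, so the populations overlapped in each sex. Of the 36 pathway genes none was called either, and the smallest p was that of Gabbr2, a GABA-B receptor subunit (-0.16, SE 0.05, edgeR adjusted p = 0.244).

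In D1 nuclei no subunit was called with RXRa, and neither was any of the 43902 genes (0%), by edgeR, DESeq2 or limma voom. All 7 fitted values were positive. Gabra2 had the largest, at 0.31 (SE 0.13, edgeR adjusted p = 0.588), followed by Gabrb2 at 0.23 (0.11, 0.598), Gabra4 at 0.23 (0.13, 0.656) and Gabrb1 at 0.20 (0.10, 0.625). Gabra2 and Gabrb2 had an unadjusted p under 0.05 by edgeR, as had 3522 of all 43902 genes. Gabrd, Gabra3 and Gabra5 stood at 0.10 (0.16), 0.05 (0.06) and 0.03 (0.05). In CPM, Gabra2 was 183, 161, 135, 140 and 228 with EGFP and 218, 170, 217 and 257 with RXRa in D1 females, and 158, 168, 250, 178 and 180 with EGFP and 286, 213, 185 and 224 with RXRa in D1 males. The groups overlapped in both sexes. Among the pathway genes the smallest p was that of Kctd16, an auxiliary subunit of GABA-B receptors (0.42, SE 0.16, edgeR adjusted p = 0.582).

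In D2 nuclei 5 of the 7 subunits were called higher with RXRa and none lower, where 14.9% of all genes tested were called higher. Among the 11115 tested genes with a bulk mean over 10 CPM, which all 7 members have, 44.7% were called higher and 2.47% lower. The called members were Gabra2 (log2 fold change 0.55, SE 0.14, edgeR adjusted p = 0.0123), Gabra4 (0.51, 0.14, 0.0136), Gabrd (0.52, 0.17, 0.0300), Gabrb2 (0.39, 0.11, 0.0161) and Gabrb1 (0.34, 0.11, 0.0237). Gabra5 stood at 0.09 (SE 0.05, edgeR adjusted p = 0.210) and Gabra3 at 0.07 (0.07, 0.441). The median over the 7 was 0.39, beside -0.04 over all genes.

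The rise came from some of the RXRa libraries and not from others. Gabra2 had 147, 179, 164 and 181 CPM in the D2 female EGFP libraries 1, 3, 4 and 5 and 215, 176, 386 and 258 CPM in the RXRa libraries 2 to 5. In D2 males it had 156, 175, 159, 175 and 193 CPM with EGFP and 165, 181, 274 and 332 CPM in the RXRa libraries 1, 2, 3 and 5. Female RXRa 4 and male RXRa 5 were the highest, while female RXRa 3 and male RXRa 1 and 2 lay within the range of the controls of their sex.

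Gabra4, the extrasynaptic partner of delta, had 125, 145, 126 and 130 CPM with EGFP and 175, 139, 291 and 203 CPM with RXRa in D2 females. In D2 males it had 116, 148, 137, 167 and 163 CPM with EGFP and 120, 160, 251 and 240 CPM with RXRa. The same 3 RXRa libraries lay within the controls as for Gabra2. Gabrd had 15.5, 23.9, 16.7 and 14.4 CPM with EGFP and 32.1, 17.8, 31.5 and 20.5 CPM with RXRa in D2 females, and 11.5, 22.6, 18.8, 18.7 and 19.2 CPM with EGFP and 12.7, 24.2, 33.9 and 32.2 CPM with RXRa in D2 males. Being short, Gabrd had the fewest counts of the 7, between 206 and 594 in a sorted library, and the largest standard error.

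The beta subunits had smaller fitted changes, with female RXRa 4 and male RXRa 5 again the highest. Gabrb1 had 407, 470, 452 and 489 CPM with EGFP and 527, 459, 860 and 583 CPM with RXRa in D2 females, and 460, 482, 439, 485 and 483 CPM with EGFP and 461, 444, 641 and 722 CPM with RXRa in D2 males. Gabrb2 had 186, 233, 202 and 225 CPM with EGFP and 271, 219, 411 and 257 CPM with RXRa in D2 females, and 202, 237, 215, 250 and 228 CPM with EGFP and 205, 232, 333 and 365 CPM with RXRa in D2 males. For each of the 5 called subunits the RXRa and EGFP libraries overlapped in both sexes. Gabra5, which was not called, ran from 41.5 to 48.9 CPM over the 9 D2 EGFP libraries and from 40.0 to 53.2 CPM over the 8 RXRa ones.

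**Figure D3:**
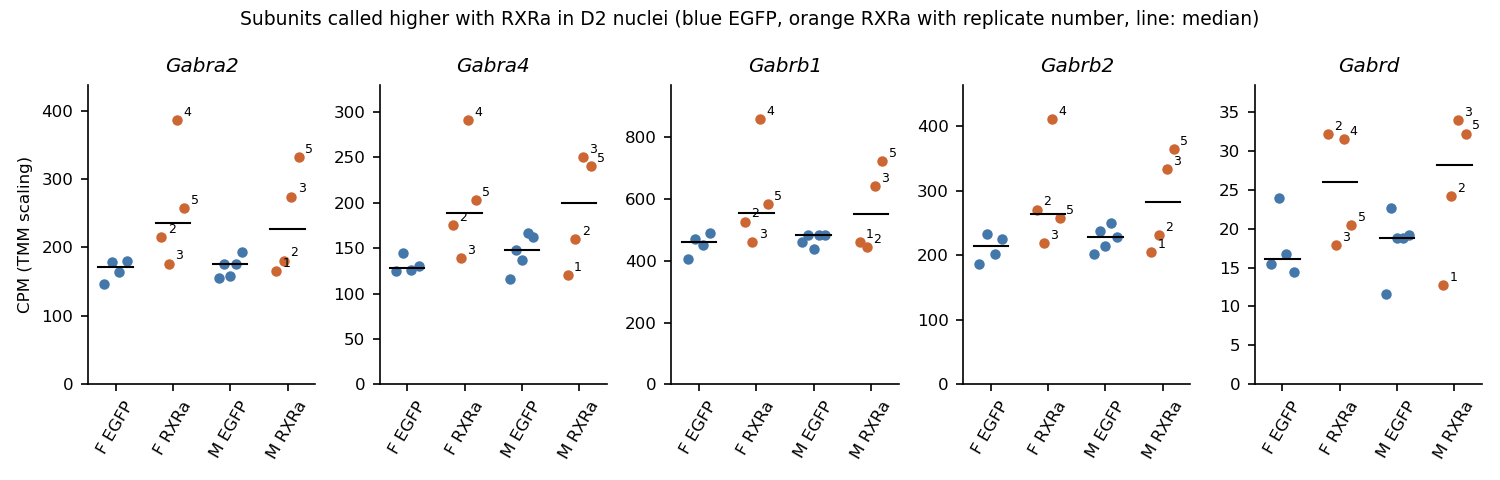
CPM of the 5 subunits called higher with RXRa in D2 nuclei, by sex (F female, M male) and vector; points are libraries, black lines group medians, and numbers give the replicate of each RXRa library. Female RXRa 4 and male RXRa 5 are highest for Gabra2, Gabrb1 and Gabrb2, and male RXRa 1 lies among the EGFP libraries for all 5.

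All 5 calls ended when either of 2 libraries was left out, and that of Gabrd when any of 7 of the 17 was (edgeR adjusted p from 0.00274 to 0.102), as well as with library totals, with limma voom and with only the compared groups in the fit. Gabra2, Gabra4 and Gabrb2 kept their calls in the other 15 omissions and Gabrb1 in 13 of 17. With only the compared groups in the fit, Gabrb1 and Gabrb2 also lost their calls, and Gabrb1 did so with library totals. Without D2 female RXRa 4, 0 of the 7 subunits and 0 genes in all were called, and without D2 male RXRa 5, 0 subunits and 1626 genes. These 2 libraries also had the lowest silent-gene densities of the table, 0.303 and 0.333 CPM per kb against a median of 0.557 in D2 male EGFP libraries, and the highest vector RXRa, 709 and 618 CPM. The 3 RXRa libraries within the Gabra2 range of their controls, female RXRa 3 and male RXRa 1 and 2, had densities of 0.550, 0.544 and 0.447 CPM per kb and 198, 134 and 256 CPM of vector RXRa. Over the D2 groups the mean silent-gene density was 0.555 in female and 0.548 in male EGFP libraries, and 0.431 and 0.433 in the RXRa ones. With that density as a covariate in the fit, 0 of the 7 subunits and 0 genes were called, and the log2 fold changes lay between -0.02 for Gabra4 and 0.05 for Gabra3. Since the density and the vector moved together in D2, their parts in the subunit values cannot be told apart.

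Genes without any bulk count went the other way in this comparison, with 1.53% of 11864 called higher and 10.1% lower. The difference between a subunit's density and the silent-gene density of its library was larger with RXRa for all 7 members, and the subtracted density was itself lower with RXRa. For Gabra2 the difference was 0.726 ± 0.10 CPM per kb in D2 EGFP (SD, n = 9) and 1.20 ± 0.43 in D2 RXRa (n = 8), for Gabra4 1.09 ± 0.19 and 1.59 ± 0.48, and for Gabrd 0.865 ± 0.30 and 1.34 ± 0.50. For the uncalled Gabra3, set against X-linked silent genes, it was 0.162 and 0.215, and for the uncalled Gabra5 -0.103 and -0.008. The spread between RXRa libraries was wider than between controls for each of Gabra2, Gabra4 and Gabrd. Some markers of the sorted cells were also higher, without a test of their part: Drd2 ran from 527 to 652 CPM with EGFP and from 614 to 1776 CPM with RXRa in D2 females, and from 519 to 927 and 647 to 1501 CPM in D2 males. The 6 D2 markers together had a median of 1046 CPM with EGFP and 1986 with RXRa in females, and of 1437 and 2058 CPM in males, but 1 of them, Ttc12, stood at 118 and 124 CPM on average in females and at 129 and 124 CPM in males. Of the D1 markers in these D2 nuclei, Drd1 averaged 11.7 CPM with EGFP and 19.9 with RXRa in females. In males it averaged 12.8 and 25.8 CPM. Tac1 averaged 19.9 and 31.3 CPM in females and 22.2 and 39.6 CPM in males. Pdyn and Sfxn1 also had higher means with RXRa in both sexes. Ebf1 and Eya1 had lower means in both sexes, and Isl1 a lower one in females and a higher one in males. The 7 together had medians of 410 and 388 CPM in females and 405 and 388 CPM in males. Ebf1 was the largest part of that sum, so the sum does not show how the other D1 markers moved. The part of these shifts in the subunit values was not tested further.

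Another scaling turned the direction of the 2 members with the smallest D2 values. With library totals in place of TMM factors, the median of all genes shifted by -0.16 on the log2 scale in this comparison, the calls changed from 6548 higher and 3135 lower to 2063 higher and 9325 lower, 3 of the 7 subunits stayed called higher, and Gabra3 and Gabra5 turned to -0.09 and -0.08. Within one sex no subunit and no gene was called by edgeR, with 5 members at an unadjusted p under 0.05 in D2 females and 4 in D2 males. Of all 43902 genes, 11079 in D2 females and 8657 in D2 males had such a p. DESeq2 called 3 subunits in D2 females, where it called 12.5% of genes, and none in D2 males. With limma voom none was called in either. The fitted values were alike in size, for Gabra2 0.63 (SE 0.20) in females and 0.47 (0.19) in males. None of the 7 subunits was called for a difference of the RXRa effect between the sexes in either population by edgeR, DESeq2 or limma voom.

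**Figure D4:**
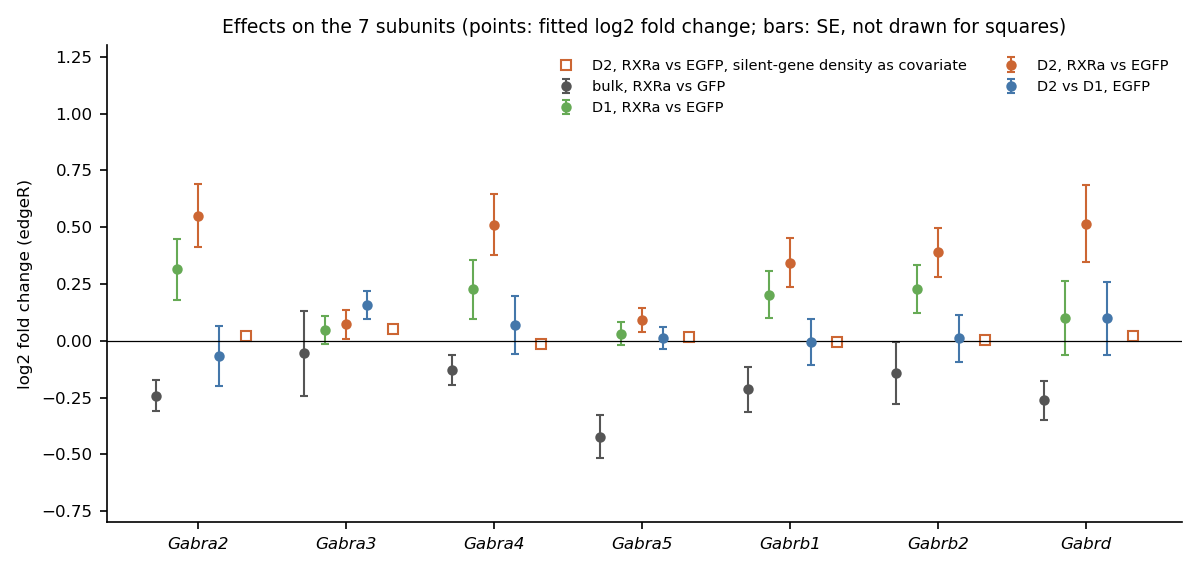
Fitted log2 fold changes of the 7 subunits with standard errors in 4 comparisons (filled points), and in D2 nuclei with the silent-gene density as a covariate (open squares, errors not drawn). Bulk values are all below 0, D2 values all above 0, and the squares lie between -0.02 and 0.05.

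Whether the RXRa effect differed between D2 and D1 was tested directly. None of the 7 subunits, and 0% of all genes, was called for this difference by edgeR, DESeq2 or limma voom, and none of the 7 had an unadjusted p under 0.05 by edgeR. The largest difference was that of Gabrd, 0.42 (SE 0.24, edgeR adjusted p = 0.602), then Gabra4 at 0.28 (0.19, 0.619) and Gabra2 at 0.24 (0.19, 0.677). The calls in D2 and their absence in D1 are therefore not shown to differ. Compared within the RXRa vector, D2 over D1, 0 of 7 subunits were called where 8.38% of all genes were. By edgeR, 3 members had an unadjusted p under 0.05, as had 11633 of all 43902 genes. Gabrd came nearest (0.51, SE 0.17, edgeR adjusted p = 0.0551), then Gabra3 (0.18, 0.07, 0.0758) and Gabra4 (0.35, 0.14, 0.0944). DESeq2 called 2 of them, Gabra3 and Gabrd, where it called 17.5% of genes, and limma voom none. With library totals, the share of higher among all calls of this comparison was 71.3% in place of 81.8%.

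Of the 36 pathway genes, 22 were called higher and 1 lower with RXRa in D2 nuclei, to be read against the 44.7% called higher among genes over 10 CPM in bulk. The list's median was 0.38 on the log2 scale. The 3 largest were Slc32a1, the transporter that loads GABA into vesicles (0.77, SE 0.27, edgeR adjusted p = 0.0386), Shisa7, an auxiliary protein of GABA-A receptors (0.76, 0.16, 0.0111), and Kctd12, a partner of GABA-B receptors (0.70, 0.20, 0.0175). All 4 genes of synthesis and breakdown, 2 of 3 for chloride, 10 of 19 for receptor clustering and trafficking and 4 of 5 for GABA-B receptors were called higher. Vesicle loading and uptake went less one way, with 2 of 5 called higher, 1 called lower and a median of -0.05. The gene called lower was Slc6a13, a GABA transporter of the meninges and vessels (-0.21, 0.07, 0.0336). Like the subunit calls, these rest on the same libraries.

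Of 12 other subunit genes, 3 were called higher and 1 lower in D2 nuclei, where 14.9% and 7.14% of all genes were. The 12 had a median of -0.12 on the log2 scale, with 5 values positive and 7 negative. Among them, Gabrg3, a gamma subunit, was higher (0.57, SE 0.14, edgeR adjusted p = 0.0118), and Gabra6, which had no bulk count, was lower (-0.37, 0.10, 0.0127). Between D2 and D1 under RXRa, 9 of the 36 pathway genes were called higher, where 6.85% of all genes were, among them Kctd12 (0.92) and Gabarapl1, a receptor trafficking protein (0.74), and 2 were lower, Slc6a12 (-0.26) and Slc6a13 (-0.25). With only the compared groups in the fit, 34 genes in all were called in that comparison in place of 3677.

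Gabra3 was the member that differed by sex. This comparison was chosen after the levels were seen. Under EGFP it ran from 117 to 147 CPM in the 9 female libraries (median 127), and the 10 male libraries held 65.9 to 83.6 CPM (median 74.3), without overlap. Under RXRa the 8 female libraries had 107 to 158 CPM and the 8 male ones 67.4 to 94.0 CPM, again without overlap. The log2 fold change of females over males under EGFP was 0.83 (SE 0.06, edgeR adjusted p = 5.33e-13), it was called in each of the 19 fits that left out 1 library, and none of the 6 autosomal members was called. Of all genes tested, 3.43% were called higher in females.

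The X-linked silent genes showed this difference in full. Their median density was 2.03 times as high in female as in male libraries under EGFP and 2.03 times under RXRa, while autosomal silent genes had ratios of 1.02 and 0.947. Gabra3 had ratios of 1.82 and 1.69. Set against the X-linked silent genes of the same library, Gabra3 did not stand higher in females: the ratio was 1.33 to 1.52 in EGFP females and 1.36 to 1.74 in EGFP males. Gabre and Gabrq, 2 other X-linked subunit genes, were also called higher in females (1.08 and 0.97). Bulk libraries came from males only, so the sex difference has no counterpart there.

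**Figure D5:**
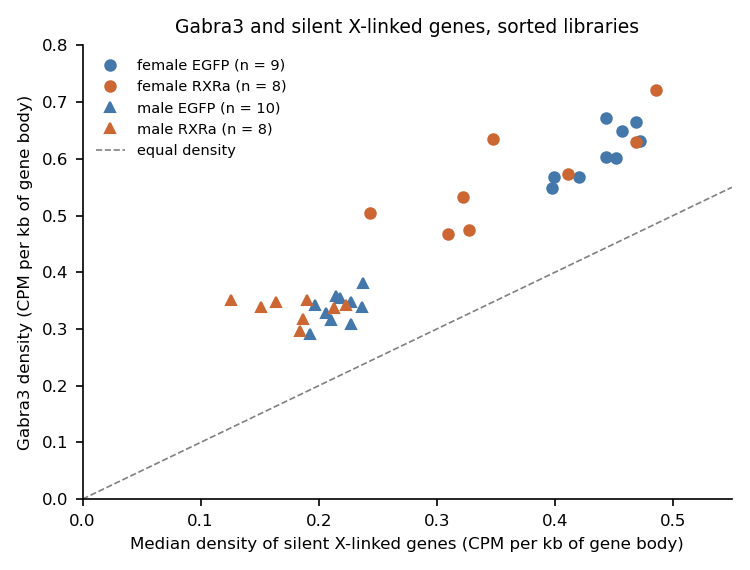
Gabra3 density against the median density of 118 silent X-linked genes in the 35 sorted libraries, both in CPM per kb of gene body; circles are females, triangles males, and the dashed line marks equal density. All points lie above the line, and females lie to the upper right of males in Gabra3 density.

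Across the 35 sorted libraries, which share background, depth range and scaling, 4 of the 5 members called in D2 followed each other closely, given as a description. Pearson's r of log2(CPM + 1) was 0.96 between Gabra2 and Gabrb1, 0.94 between Gabra4 and Gabrb2 and 0.91 between Gabra2 and Gabra4. Gabrd followed the others less closely, at 0.74 with Gabra4, 0.66 with Gabrb2, 0.56 with Gabra2 and 0.46 with Gabrb1, and Gabra5, which was not called, had 0.74 with Gabrb1. With the silent-gene density r was -0.86 for Gabra2, -0.84 for Gabra4 and -0.72 for Gabrd. The genes whose pattern was most like a member's, among 11827 protein-coding genes with a mean of at least 10 CPM, were Rims2 (0.99) and Plppr1 (0.98) for Gabra2, Ppp3ca and Ppp1r9a (both 0.98) for Gabra4, Xkr4 and Magi2 (both 0.99) for Gabrb1, Dmxl1 and Phf14 (both 0.98) for Gabrb2, and Cplx2 and Chst1 (both 0.97) for Gabrd. Gabra5 had weaker likenesses, to Tasp1 (0.83) and Tmem135 (0.82). For Gabra3, whose levels separate by sex, r with the X-linked gene Dmd was 0.91 within the 17 female and 0.92 within the 18 male libraries.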

How the data were processed

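RNA of 44 samples was measured by RNA-seq. Both tables hold whole-number counts per gene as deposited by the authors, with no normalization; the submitters' processing notes name FastQC, Trimmomatic, HISAT2, Picard, Subread featureCounts and GRCm38, with no versions. The use of strand and of intron reads is not given in the sources used here. Reads were paired, 150 bp, per the labels' protocols, with poly(A) selection for bulk and ribosomal RNA depletion for sorted nuclei. Of 55487 gene IDs, 55394 matched GENCODE M21.

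Samples were grouped from the labels; 1 sorted library whose title and vector label disagree entered no comparison. Counts were tested with edgeR 4.0.16 (R 4.3.3; filterByExpr, TMM, quasi-likelihood test), the 35 sorted libraries as 8 groups in 1 fit with both sexes weighted equally, adjusted by Benjamini-Hochberg over all genes tested and called under 0.05. The fit was tested on simulated data. Alternatives were RLE factors, library totals, other low-count filters, DESeq2 1.42.0, limma voom 3.58.1, a robust fit, a replicate block, the silent-gene density as covariate, only the groups compared, and leaving out each library. CPM uses TMM scaling; densities are CPM of library totals per kb.

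The members and gene lists were chosen with earlier results of these data known. All 7 members were named in every comparison; of the other lists, up to 3 called genes with the largest rise and fall, or the smallest p; other list genes were chosen after their values were seen. Some genes of the lists are not reported here. Nothing states that samples came from separate animals, so p-values measure the spread between these samples, which may be technical. No 2 libraries of a group agreed within sampling noise.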

Additional observations from a re-analysis of the deposited data

Results flagged for a closer look

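In 3 of the 70 combinations of a subunit and a group of 4 or 5 libraries, 1 library stood far from the rest by Dixon's criterion, where chance gives about 1 in 20. D1 male EGFP replicate 3 was high for Gabra2, at 249.9 CPM with the next library at 180.2, and for Gabrb2, at 265.6 CPM with the next at 219.4. Bulk RXRa replicate 4 was low for Gabrb2, at 75.9 CPM with the next at 93.4; its summed level of the striatal projection neuron markers, 3069 CPM, was also the lowest of the 8 bulk libraries.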

How the results depend on the processing

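In bulk, 1 of the 7 subunits was called; the number was 0 with RLE factors, with library totals and with the replicate block, 2 with DESeq2, and 0 to 1 when each library was left out. In D2 nuclei 5 were called; the number was 3 with library totals, 0 with the silent-gene density as covariate, 2 with only the groups compared and 0 to 5 when each library was left out, at 0 without D2 female RXRa 4 or D2 male RXRa 5. With voom and with the block, Gabrd lost its call and the other 4 kept theirs. Within D2 females DESeq2 called 3 in place of 0, and leaving out each library gave 0 to 4, the 4 without RXRa 3; within D2 males it gave 0 to 4, the 4 without RXRa 1. Between D2 and D1 under RXRa, RLE factors gave 1, DESeq2 2, and leaving out each library 0 to 3, the 3 without D2 male RXRa 1. Some values changed sign. With library totals, Gabra3 and Gabra5 turned to -0.026 and -0.045 in D1, to -0.095 and -0.078 in D2, and Gabra5 to -0.018 between D2 and D1 under RXRa. With the covariate, Gabra4, Gabra5 and Gabrd turned to -0.015, -0.0087 and -0.14 in D1, Gabra4 and Gabrb1 to -0.015 and -0.0044 in D2, Gabra2 to -0.031 between D2 and D1 under RXRa, and Gabra2, Gabra4, Gabrb1 and Gabrb2 to -0.048, -0.00010, -0.042 and -0.048 for the difference between D2 and D1. Between D2 and D1 under EGFP, the covariate turned Gabra2 to 0.018 and Gabrb1 to 0.048, and Gabrb1 also turned to 0.0033 with RLE factors, 0.0013 with library totals, 0.0033 with DESeq2, 0.0020 with voom and 0.0046 with only the groups compared. Leaving out each library gave -0.0057 to 0.075 for Gabra3 in D1, -0.17 to 0.14 for Gabra3 in bulk, and under EGFP -0.0056 to 0.024 for Gabra5, -0.034 to 0.040 for Gabrb1 and -0.019 to 0.045 for Gabrb2. The cause of these changes was not tested.

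The labels do not say that replicate numbers pair samples, and correlations of same-numbered samples were mixed (-0.60 to 0.57 in bulk, where 1 of 4 correlated best with its own number). With the replicate block, 0 of the 18579 bulk genes were called in place of 687, 6027 in place of 9683 in D2, and 136 in place of 3677 between D2 and D1 under RXRa. The count of all genes called also moved by over 1.5 times elsewhere: in bulk to 1598 with DESeq2; in D2 to 0 with the covariate and 2543 with only the groups compared; between D2 and D1 under RXRa to 1119 with library totals, 862 with voom, 1274 with the covariate, 5601 with DESeq2 and 34 with only the groups compared; under EGFP from 53 to 92 with DESeq2, 203 with the covariate and 133 with only the groups compared; and between the sexes from 1947 to 1170 with the block and 1024 with the filter at 1 CPM. In the block each replicate number was tied to 1 sex, so the blocked fit could not separate the sexes from the blocks. Its 1170 calls therefore do not show how the sex comparison depends on the block. Within 1 sex, DESeq2 called 3027 genes in D2 females, 39 in D2 males and 4 in D1 females in place of 0. It also called 2 in place of 0 for the sex difference of the effect in D1. Leaving out each library gave 9 to 1016 genes in bulk, 0 to 14763 in D2 and 118 to 9889 between D2 and D1 under RXRa. As ratios to the silent-gene density, an alternative chosen after the data were seen and run without a test, all 7 values in D1 and in D2 kept their sign (0.71 for Gabra2 and 0.30 for Gabra5 in D2). The silent-gene density itself was lower with RXRa, in D2 at means of 0.431 in females and 0.433 in males against 0.555 and 0.548 with EGFP. A gene of unchanged density would therefore also rise in this ratio, so the kept signs do not decide whether the subunits changed.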

Other observations

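The sorted library whose title and vector label disagree had 15630501 counts. Its densities over that of silent genes were 2.52 for Gabra2, 1.46 for Gabra3, 3.11 for Gabra4, 0.824 for Gabra5, 1.76 for Gabrb1, 2.02 for Gabrb2 and 3.41 for Gabrd, each within the range of the 35 libraries with a group.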
